A study of Mus musculus with 12 samples.

Results

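The 10 genes described here are *Mdm2*, *Cdkn1a*, *Ccng1*, *Cdkn2a*, *Sesn1*, *Trp53inp1*, *Bax*, *Phlda3*, *Zmat3* and *Eda2r*, transcriptional targets of p53 together with the senescence marker *Cdkn2a*. They were taken by symbol from the 24062 genes measured in each library, and all 10 were found. The study asked what loss of *Norad*, a cytoplasmic noncoding RNA that binds PUMILIO proteins, does to mice, in which chromosome missegregation and early aging were among the phenotypes examined. RNA of brain and spleen was sequenced from 10-week-old C57BL/6 males, with 3 Norad+/+ (wild-type) and 3 Norad-/- (homozygous knockout) libraries per tissue. The labels name no treatment or transgene. The knockout animals lacked the *Norad* locus after Cas9 editing of C57BL/6J zygotes. Knockout lines came from 3 founders and were kept by backcrossing, and the labels do not say from which line each library came. Each library is 1 mouse by the study's account. That account gives 3 mice per genotype for brain and spleen, so the tissues may come from the same mice. The labels do not say whether a brain and a spleen with the same number came from 1 animal.

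p53 is a transcription factor that is stabilised by DNA damage and other stress and that switches on genes for cell cycle arrest, DNA repair and cell death. Its product MDM2 marks p53 for degradation, so the pathway limits itself. *Cdkn1a* encodes p21, which inhibits cyclin-dependent kinases, and *Cdkn2a* encodes both p16INK4a, an inhibitor of CDK4 and CDK6, and p19ARF, an inhibitor of MDM2. Rising p16INK4a and p21 are used as markers of senescent cells in aging tissue.

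Sequence elements of PUMILIO proteins, which the study examined, and of p53, which the choice of genes brings in, were looked for in these genes. PUMILIO proteins bind the PUMILIO response element (PRE), TGTANATA in DNA letters, and *Norad* carries many copies. On the transcript strand of the longest annotated 3′ UTR in GENCODE M21 (build GRCm38), 4 of the 10 genes held a PRE. *Zmat3* held 4 in a UTR of 6692 bases, *Trp53inp1* 4 in 4420 bases, *Cdkn1a* 1 in 1334 bases and *Eda2r* 1 in 3634 bases. The UTRs of *Mdm2* (2199 bases), *Ccng1* (2316), *Sesn1* (1066), *Phlda3* (727), *Cdkn2a* (264) and *Bax* (224) held none. Of 21173 genes with an annotated 3′ UTR 23.1% held at least 1 PRE and 7.22% held 2 or more, with a median UTR of 1084 bases. The 5 sites with the letters TGTATATA are printed to show where a PUMILIO protein could meet these transcripts, with the PRE in capitals.
Cdkn1a, chr17:29099514-29099521, plus strand: taaacgtctccTGTATATAcgctgcctgcc
Zmat3, chr3:32339402-32339409, minus strand: tacccccctccTGTATATAcagaaaacagt
Trp53inp1, chr4:11170396-11170403, plus strand: atagccttttcTGTATATAatgagtacatt
Trp53inp1, chr4:11170511-11170518, plus strand: tgacatatttcTGTATATAtgttttttttt
Eda2r, chrX:97334312-97334319, minus strand: ttcatgagacaTGTATATAacataactctg
The *Cdkn1a* site begins 121 bases after the stop codon and the first *Trp53inp1* site 437 bases after it, whereas the *Zmat3* and *Eda2r* sites begin 2075 and 3155 bases downstream. A match is a description of the letters and was not tested as a binding site.

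The p53 response element, a pair of abutting half-sites, was searched on both strands of RefSeq promoter windows (GRCm38, 250 bases before to 50 bases after each annotated start), keeping the core letters and allowing at most 2 other mismatches. Windows were given for 8 of the 10 genes, with none for *Zmat3* and *Trp53inp1*, and 1 of their 11 windows held a match. It lay in the upstream of the *Cdkn1a* windows, at chr17:29090928-29090947 on the plus strand, and began at position -51 from the annotated start with 1 mismatch. It is printed with 5 flanking bases on each side and the element in capitals.
Cdkn1a promoter element: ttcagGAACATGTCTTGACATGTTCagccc
Of 32851 windows of the same length in the genome 52 (0.158%) held a match. The window is short, and the absence of a match elsewhere says only that these letters were not in it.

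Expression is given as FPKM, reads per kilobase of transcript scaled to the library's total, so levels can be set beside each other between genes. Estimated depth was 28.4 to 36.5 M reads in the brain libraries and 31.7 to 35.2 M in the spleen libraries. *Norad* itself was present at 206 to 635 FPKM in Norad+/+ brain and 42.9 to 62.0 FPKM in Norad+/+ spleen and at 0.0173 FPKM or less in all Norad-/- libraries, so the labels held. Markers of neurons, oligodendrocytes and astrocytes were all detected in brain, and those of B cells, T cells, macrophages and red cell precursors in spleen. Several libraries stood apart. Norad+/+ brain replicate 3 and Norad+/+ spleen replicate 3 had the lowest median Spearman correlation with the other libraries of their tissue (0.949 and 0.948, against 0.961 to 0.979 for the rest). Norad-/- brain replicate 3 held pituitary transcripts at a summed 1338 FPKM against at most 1.48 in the other brain libraries. Norad+/+ spleen replicate 3 held pancreas transcripts at 297 FPKM against 3.19 to 9.59 and liver transcripts at 118 FPKM against at most 0.612. In bulk tissue, fewer cells of a type and less RNA per cell cannot be told apart.

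**Figure D1:**
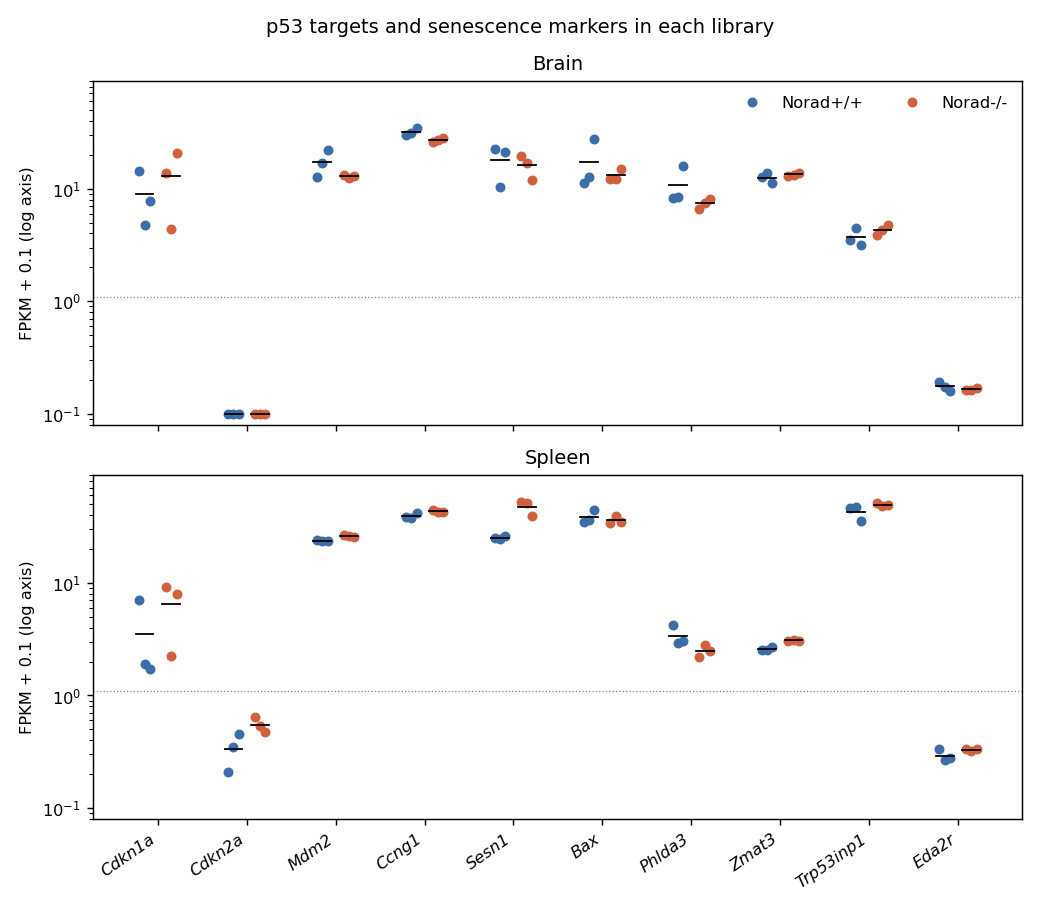
FPKM + 0.1 on a log axis of the 10 genes in each brain and spleen library, Norad+/+ in blue and Norad-/- in orange, with the group mean of 3 libraries as a bar and the mean of 1 FPKM needed for testing as a dotted line. *Cdkn2a* and *Eda2r* lie under that line in both tissues, *Cdkn1a* spreads most within groups, and *Sesn1* in spleen shows the widest gap between groups that do not overlap.

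Of the 10 genes, 8 were tested in each tissue. *Cdkn2a* and *Eda2r* had a mean below 1 FPKM in both. In brain 0 of the 8 passed limma at an adjusted p of 0.05, where 0.0153% of 13051 genes did, and 0 of 8 had an unadjusted p under 0.05, where 6.62% of all genes did. In spleen 0 of 8 passed, where 0.0323% of 12397 genes did. An unadjusted p under 0.05 was reached by 2 of 8 in spleen, *Sesn1* and *Zmat3*, where 21% of all genes reached it. The groups did not overlap with Norad-/- higher for 0 of 8 genes in brain (10.6% of all genes) and with Norad-/- lower for 2 of 8, *Ccng1* and *Phlda3* (6.56%). The 6 endothelial markers in brain summed to 76.4, 63.2 and 76.7 FPKM in Norad+/+ and 62.2, 52.8 and 59.7 FPKM in Norad-/-, with 6 of 6 log2 fold changes below 0. The 6 choroid plexus markers summed to 399, 618 and 652 FPKM in Norad+/+ and 386, 367 and 386 FPKM in Norad-/-, with 4 of 6 below 0. Both sums were lower in Norad-/- brain without overlap, and their part in the *Ccng1* and *Phlda3* values was not tested. In spleen 5 of 8 were higher in Norad-/- without overlap (11.6% of all genes), namely *Mdm2*, *Ccng1*, *Sesn1*, *Zmat3* and *Trp53inp1*, and 1 of 8, *Phlda3*, was lower (14.9%). The median log2 fold change, Norad-/- against Norad+/+, was -0.17 over the 8 genes and 0.02 over all genes in brain. In spleen it was 0.18 over the 8 genes and -0.02 over all genes. Rescaling spleen values to TPM moved the median of all genes to 0.10 and that of the 8 genes to 0.31, with 7 instead of 6 above 0.

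**Figure D2:**
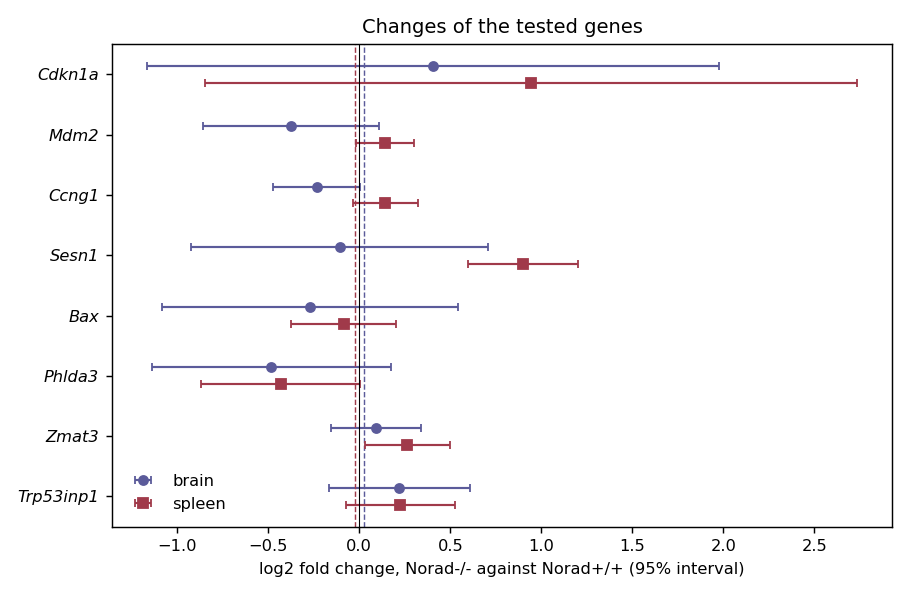
Log2 fold change of Norad-/- against Norad+/+ on the log2(FPKM + 0.1) scale for the 8 tested genes, brain as circles and spleen as squares, with 95% intervals from limma and the median of all genes in each tissue as a dashed line. The interval lies above 0 for *Sesn1* (0.60 to 1.2) and *Zmat3* (0.03 to 0.50) in spleen and includes 0 in every other case, and *Cdkn1a* has the widest interval in both tissues.

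*Mdm2* encodes the ubiquitin ligase that degrades p53. In brain it measured 12.6, 16.6 and 21.9 FPKM in Norad+/+ and 13.2, 12.4 and 12.7 FPKM in Norad-/-. The knockouts were close together near the lowest Norad+/+ library, so the groups overlapped (log2 fold change -0.38, SE 0.20, limma adjusted p = 0.718). Leaving out 1 brain library at a time gave -0.58 to -0.18. In spleen *Mdm2* measured 23.7, 23.1 and 23.3 FPKM in Norad+/+ and 26.4, 25.7 and 25.2 FPKM in Norad-/-. All 3 knockouts lay above all 3 wild-type libraries, by a small step (log2 fold change 0.14, SE 0.07, limma adjusted p = 0.276). With the T cell markers as a covariate the log2 difference was 0.06, and after rescaling to TPM it was 0.26.

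*Cdkn1a* (chr17:29090976-29100727, plus strand, GRCm38), the gene of p21 and the best known arrest target, varied more within groups than between them. In brain it measured 14.1, 4.65 and 7.71 FPKM in Norad+/+ and 13.6, 4.24 and 20.5 FPKM in Norad-/-. Both groups spanned low and high libraries, and the highest value came from the knockout library with pituitary transcripts (log2 fold change 0.41, SE 0.65, limma adjusted p = 0.858). Leaving that library out gave -0.07. In spleen *Cdkn1a* measured 6.90, 1.79 and 1.62 FPKM in Norad+/+ and 8.98, 2.14 and 7.87 FPKM in Norad-/-. The groups overlapped, with 1 of 3 Norad+/+ and 2 of 3 Norad-/- libraries well above the others (log2 fold change 0.94, SE 0.74, limma adjusted p = 0.492). Leaving out 1 spleen library at a time moved this value from 0.58 to 1.60, and the T cell covariate described with *Sesn1* gave 0.23. The 95% interval in spleen ran from -0.85 to 2.73, so neither no difference nor a several-fold one could be told apart with these mice.

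The library numbered 1 exceeded the library numbered 2 for *Cdkn1a* in each of the 4 groups, by 3.03-fold and 3.21-fold in Norad+/+ and Norad-/- brain and by 3.86-fold and 4.2-fold in Norad+/+ and Norad-/- spleen. The library numbered 3 took no fixed place, being highest in Norad-/- brain and lowest in Norad+/+ spleen. What a number shares across groups is not stated in the labels. The order was seen after the values, and the share of all genes with such an order was not computed. Brain and spleen may share mice, so the 4 groups may not be independent. The annotation places the exons of an antisense gene model, *AC167363.2*, over those of *Cdkn1a*. Libraries were stranded, but whether the FPKM values used strand is not given in the sources used here, so reads of the pair may not be separated.

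**Figure D3:**
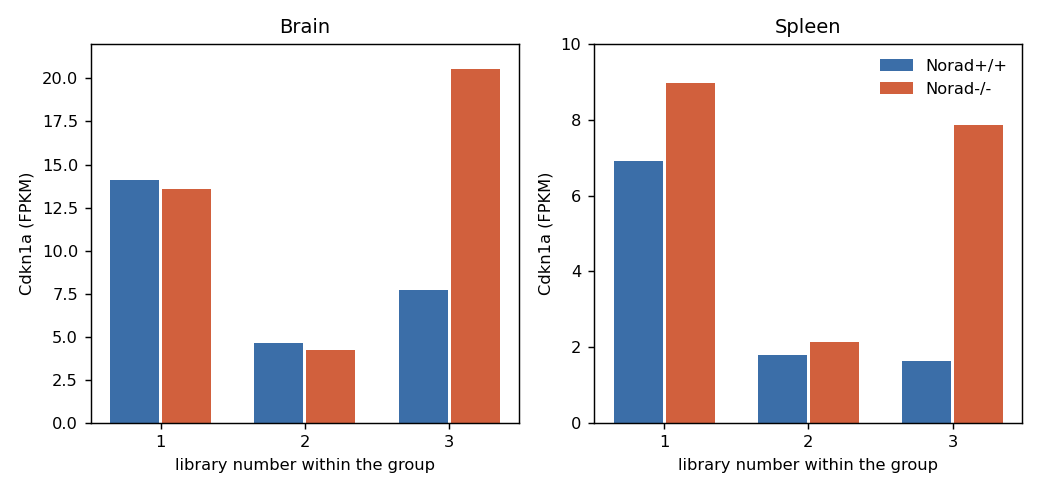
*Cdkn1a* FPKM in each of the 12 libraries by tissue, genotype and library number, 1 bar per library and a linear axis from 0. Number 1 stands above number 2 in all 4 groups, and the bars of number 3 lie high in Norad-/- (20.5 FPKM in brain, 7.87 in spleen) and lower in Norad+/+ (7.71 and 1.62).

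*Ccng1* encodes cyclin G1, a p53 target that acts with a phosphatase on MDM2. It was among the steadiest of the 10 genes within groups. In brain it measured 29.8, 30.9 and 34.5 FPKM in Norad+/+ and 25.8, 26.9 and 28.0 FPKM in Norad-/-, so every knockout lay below every wild type (log2 fold change -0.23, SE 0.10, limma adjusted p = 0.718). In spleen the order turned, with 37.9, 37.6 and 41.2 FPKM in Norad+/+ and 44.5, 42.3 and 42.1 FPKM in Norad-/-. Every spleen knockout lay above every wild type (log2 fold change 0.14, SE 0.07, limma adjusted p = 0.312). The spleen value was 0.26 after rescaling to TPM (limma adjusted p = 0.191) and 0.16 with the T cell covariate. Neither difference passed the test.

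*Cdkn2a* was listed at 0 FPKM in all 6 brain libraries. In spleen it measured 0.111, 0.246 and 0.355 FPKM in Norad+/+ and 0.540, 0.440 and 0.373 FPKM in Norad-/-. At the estimated depths these values stand for about 3.0 to 10.8 reads per Norad+/+ library and 11.2 to 15.8 reads per Norad-/- library. All 3 knockouts lay above the wild types, the nearest pair being 0.373 and 0.355 FPKM (log2 difference 0.77, exact permutation p = 0.1, two-sided, the smallest that 3 against 3 libraries allow). The log2 difference was 0.46 without Norad+/+ replicate 1, 0.23 with a pseudocount of 1 and 1.06 after rescaling to TPM. The gene-level value does not separate p16INK4a from p19ARF.

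*Sesn1* (chr10:41809935-41908424, plus strand, GRCm38) encodes sestrin 1, a stress protein that restrains mTORC1 signalling. In spleen it measured 24.98, 24.5 and 25.8 FPKM in Norad+/+ and 52.1, 50.6 and 39.0 FPKM in Norad-/-. The wild types lay close together and each knockout was far above them, giving means of 25.1 ± 0.655 FPKM (SD, n = 3) and 47.2 ± 7.19 FPKM (SD, n = 3). The mean was 1.88-fold higher in Norad-/-. The log2 fold change of 0.90 (SE 0.12) had the smallest p of the 8 genes and ranked 28 of 12397 in spleen, and it did not pass (limma adjusted p = 0.129). Leaving out Norad-/- spleen replicate 3, the lowest knockout, gave 1.03 and an adjusted p of 0.0454 by limma, in a comparison where 93 genes passed in place of 4.

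Cell markers also differed among the spleen libraries. Summed over the 5 T cell markers present, spleen libraries held 255, 215 and 224 FPKM in Norad+/+ and 360, 383 and 320 FPKM in Norad-/-, and all 5 markers had non-overlapping groups with Norad-/- higher. The 12 red cell precursor markers summed to 724, 1787 and 2396 FPKM in Norad+/+ and 84.1, 68.0 and 950 FPKM in Norad-/-, which overlap, and none of them was at 0 throughout. Of these markers 12 of 12 had log2 fold changes below 0 (median -3.80). All 12 were lower at an unadjusted p under 0.05 by limma (13.6% of all genes), and 0 had non-overlapping groups. The 6 macrophage markers summed to 899, 948 and 1215 FPKM in Norad+/+ and 673, 609 and 919 FPKM in Norad-/-, with 6 of 6 log2 fold changes below 0 (median -0.50) and 3 of 6 lower without overlap. The 6 B cell markers summed to 1619, 1358 and 1367 FPKM in Norad+/+ and 1715, 1755 and 1571 FPKM in Norad-/-, with 6 of 6 above 0 (median 0.15) and 2 of 6 higher without overlap. None of the markers of these lists passed after adjustment, and the part of macrophages and B cells in the differences of the 10 genes was not tested. Among the knockouts, replicate 3 had the lowest *Sesn1*, the lowest T cell sum and the highest red cell precursor sum. *Sesn1* was highest in Norad-/- replicate 1 and the T cell sum in Norad-/- replicate 2. Among the wild types the red cell precursor sum ran from 724 to 2396 FPKM, with *Sesn1* at 24.5 to 25.8 FPKM. When the mean of the red cell precursor markers was added as a covariate, the *Sesn1* log2 difference was 0.64 (limma adjusted p = 0.642). The unadjusted p by limma was 0.00338 with this covariate and 0.0003 without it. With the T cell mean as a covariate the *Sesn1* log2 difference was 0.41 (limma unadjusted p = 0.267, adjusted p = 0.852). With 6 libraries this covariate and the genotype cannot be fully told apart, since the T cell sums of the groups do not overlap.

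**Figure D4:**
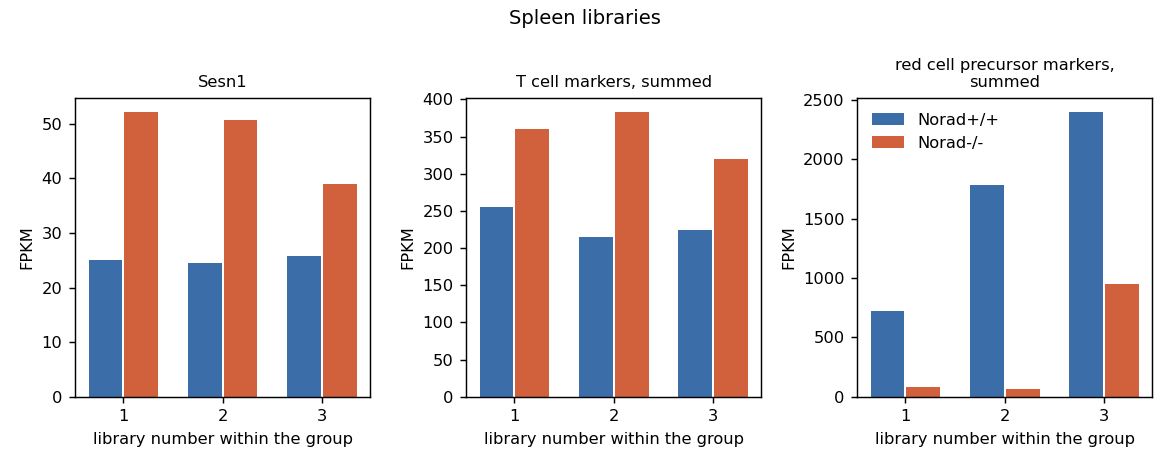
FPKM of *Sesn1*, of 5 T cell markers summed and of 12 red cell precursor markers summed in each of the 6 spleen libraries, on linear axes from 0. *Sesn1* and the T cell sum are higher in all 3 Norad-/- libraries, and Norad-/- replicate 3 lies nearest to the Norad+/+ libraries on all 3 measures.

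In brain *Sesn1* measured 22.3, 10.3 and 21.2 FPKM in Norad+/+ and 19.4, 16.9 and 11.8 FPKM in Norad-/-. Low and high libraries occurred in both groups (log2 fold change -0.11, SE 0.34, limma adjusted p = 0.929). The sign of this difference turned when Norad+/+ replicate 1, Norad+/+ replicate 3 or Norad-/- replicate 3 was left out (0.05 to 0.10).

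*Trp53inp1* encodes a stress-induced protein that promotes p53 activity and takes part in autophagy. Spleen values were 45.5, 46.6 and 35.1 FPKM in Norad+/+ and 51.3, 48.0 and 48.4 FPKM in Norad-/-. The knockouts lay above the wild types, with the lowest value in the Norad+/+ library that held pancreas and liver transcripts (log2 fold change 0.23, SE 0.12, limma adjusted p = 0.336). Without that library the value was 0.10, and with the T cell covariate it was also 0.10. Rescaling to TPM gave 0.35. Brain values were 3.42, 4.41 and 3.06 FPKM in Norad+/+ and 3.76, 4.22 and 4.65 FPKM in Norad-/-, and the groups overlapped (log2 fold change 0.22, SE 0.16, limma adjusted p = 0.742). Leaving out 1 brain library gave 0.11 (Norad+/+ replicate 3) to 0.37 (Norad+/+ replicate 2), and leaving out both libraries numbered 3 gave 0.036.

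*Bax* encodes a protein that permeabilises the outer mitochondrial membrane in apoptosis. Brain values were 11.1, 12.7 and 27.2 FPKM in Norad+/+ and 12.1, 12.1 and 14.9 FPKM in Norad-/-. A single library, Norad+/+ replicate 3, stood far above the rest and set the direction (log2 fold change -0.27, SE 0.34, limma adjusted p = 0.818), which became 0.13 without it. In spleen *Bax* measured 34.2, 36.2 and 44.0 FPKM in Norad+/+ and 33.6, 38.9 and 34.8 FPKM in Norad-/-, again with replicate 3 of Norad+/+ highest (log2 fold change -0.09, SE 0.12, limma adjusted p = 0.705). An annotated gene on the same strand, *Gm45808*, shares exonic sequence with *Bax*, so their reads could be split.

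*Phlda3* encodes a small protein that competes with AKT for membrane lipids. It was the member that was lower in Norad-/- without overlap in both tissues. In brain it measured 8.08, 8.27 and 15.8 FPKM in Norad+/+ and 6.43, 7.40 and 8.06 FPKM in Norad-/-. The nearest libraries of the groups almost touched, and Norad+/+ replicate 3 was again far above the rest (log2 fold change -0.48, SE 0.27, limma adjusted p = 0.718). Without that library the value was -0.17. In spleen *Phlda3* measured 4.10, 2.82 and 2.93 FPKM in Norad+/+ and 2.10, 2.68 and 2.38 FPKM in Norad-/- (log2 fold change -0.43, SE 0.18, limma adjusted p = 0.241). Here Norad+/+ replicate 1 was highest, and without it the value was -0.27. The value was -1.22 with the T cell covariate (limma adjusted p = 0.809) and -0.29 under quantile normalization.

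*Zmat3* encodes a zinc finger protein that binds RNA. Spleen values were 2.41, 2.41 and 2.57 FPKM in Norad+/+ and 2.93, 3.04 and 2.96 FPKM in Norad-/-. Both groups were tight and did not overlap (log2 fold change 0.26, SE 0.10, limma adjusted p = 0.211). The value stayed between 0.25 and 0.29 when any 1 spleen library was left out and was 0.27 with the T cell or the red cell precursor covariate. It was 0.41 under quantile normalization, 0.39 after rescaling to TPM and 0.20 with a pseudocount of 1, with a limma adjusted p of at least 0.143 under every alternative run. Brain values were 12.5, 13.6 and 11.2 FPKM in Norad+/+ and 12.9, 13.2 and 13.7 FPKM in Norad-/-, and the groups overlapped (log2 fold change 0.09, SE 0.10, limma adjusted p = 0.803).

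*Eda2r* encodes a receptor of the TNF receptor family that binds the A2 form of ectodysplasin. It lay near the detection limit, at 0.0932, 0.0749 and 0.0596 FPKM in Norad+/+ brain and 0.0643, 0.0628 and 0.0717 FPKM in Norad-/- brain. In spleen it measured 0.233, 0.169 and 0.176 FPKM in Norad+/+ and 0.233, 0.221 and 0.233 FPKM in Norad-/-. The groups overlapped in both tissues, with log2 differences of -0.08 in brain (exact permutation p = 0.6, two-sided) and 0.18 in spleen (exact permutation p = 0.4, two-sided).

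The change in spleen was set against that in brain by the interaction term of a limma fit to the 12 libraries. By the study's account brain and spleen may come from the same mice. The fit held no term for the mouse, so its SEs and p-values treat the 12 libraries as independent. After adjustment 0 of the 8 genes passed, as did 0% of 14967 genes. Over all genes, leaving out 1 library gave 0 to 344 calls, with 344 when Norad-/- spleen replicate 3 was absent and 34 in the absence of Norad+/+ spleen replicate 1, and a pseudocount of 1 gave 16, with 0 of the 8 genes among them in each case. An unadjusted p under 0.05 was reached by 3 of 8 members, where 14.7% of all genes reached it. For *Ccng1* the change in spleen minus that in brain was 0.38 (SE 0.12, limma adjusted p = 0.240), for *Sesn1* 1.01 (SE 0.39, limma adjusted p = 0.281) and for *Mdm2* 0.52 (SE 0.22, limma adjusted p = 0.320). The *Mdm2* value ran from 0.32 without Norad+/+ brain replicate 3 to 0.72 without Norad+/+ brain replicate 1. The other 5 differences lay between 0.01 for *Trp53inp1* and 0.54 for *Cdkn1a*. The median was 0.28 over the 8 genes and -0.08 over all genes. All 8 were above 0, and for *Bax*, *Phlda3*, *Trp53inp1* and *Cdkn1a* the sign turned when a single library was left out.

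Levels also differed between tissues. The tissues are separate tables, so these are values side by side with no test. In Norad+/+ brain *Ccng1* was highest with a mean of 31.7 FPKM. *Sesn1* (17.9), *Mdm2* (17.02), *Bax* (16.99), *Zmat3* (12.4), *Phlda3* (10.7) and *Cdkn1a* (8.81) followed, with neighbours in that order overlapping. *Trp53inp1* (3.63) lay below all of them, and *Eda2r* (0.0759) and *Cdkn2a* (0) were lowest. In Norad+/+ spleen *Trp53inp1* (42.4), *Ccng1* (38.9) and *Bax* (38.1) overlapped at the top, followed by *Sesn1* (25.1) and *Mdm2* (23.4), which did not overlap. *Cdkn1a* (3.44) overlapped both *Phlda3* (3.29) and *Zmat3* (2.46), which were separate from each other, and *Cdkn2a* (0.237) and *Eda2r* (0.193) overlapped at the bottom.

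Among genes detected in both tissues the largest contrast was that of *Trp53inp1*, 11.7-fold higher in Norad+/+ spleen than in Norad+/+ brain. *Bax* was 2.24-fold and *Eda2r* 2.54-fold higher in spleen, and *Sesn1* (1.4-fold), *Mdm2* (1.37-fold) and *Ccng1* (1.23-fold) differed less. *Zmat3* was 5.05-fold and *Phlda3* 3.27-fold higher in brain. Over all 12 libraries 7 genes were higher in every spleen library by FPKM, 2 were higher in every brain library and *Cdkn1a* alone overlapped. The share over all genes was not computed, so this count says nothing particular to the 10 genes. Summed FPKM ran from 275738 (Norad-/- brain replicate 1) to 360333 (Norad+/+ spleen replicate 3), so close pairs can depend on the scaling. The highest brain and lowest spleen values were 21.9 and 23.1 FPKM for *Mdm2* and 22.3 and 24.5 FPKM for *Sesn1*.

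In brain the 3 tested genes with a PRE, *Cdkn1a*, *Zmat3* and *Trp53inp1*, had log2 fold changes of 0.09 to 0.41, and the 5 without had -0.48 to -0.11. None passed, and without Norad+/+ brain replicate 3 the split no longer held, with 5 of 8 genes above 0. The split by sign also failed without Norad+/+ brain replicate 1 (*Sesn1* 0.089) and without Norad-/- brain replicate 3 (*Cdkn1a* -0.067, *Sesn1* 0.096). In spleen the 3 with a PRE had 0.23 to 0.94, and of the 5 without 3 were above 0 and 2 below. The split was seen after the values and was not tested.

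Other genes of the pathway were taken from lists of known members. In brain 0 genes of the 5 pathway lists passed limma or had an unadjusted p under 0.05, which 3.73% of all brain genes reached with Norad-/- higher and 2.89% with Norad-/- lower. The median log2 fold change was 0.13 over 23 other p53 targets, 0.05 over 14 genes of p53 and its regulators, -0.09 over 11 relatives of the 10 genes, 0.16 over 5 senescence genes and 0.04 over 3 cell division genes. *Trp53*, the gene of p53, measured 9.06, 8.79 and 4.62 FPKM in Norad+/+ brain and 9.64, 10.1 and 11.03 FPKM in Norad-/- brain. The knockouts lay above the wild types, and Norad+/+ replicate 3 was lowest (log2 fold change 0.51, limma adjusted p = 0.718). Others with the smallest p of their lists in brain were the adenylate kinase gene *Ak1* (-0.96), the kinases *Plk3* (0.27) and *Plk2* (0.21), the DNA repair gene *Ddb2* (0.32), the sestrin gene *Sesn3* (-0.21) and the lysosomal galactosidase gene *Glb1* (0.26).

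In spleen 0 genes of these lists passed. Of 25 other p53 targets, 3 were higher and 5 lower at an unadjusted p under 0.05 (median 0.02), which 7.42% of all spleen genes reached with Norad-/- higher and 13.6% with Norad-/- lower. The death receptor gene *Fas* measured 6.18, 5.64 and 5.59 FPKM in Norad+/+ and 7.15, 7.62 and 7.51 FPKM in Norad-/- (log2 fold change 0.35, limma adjusted p = 0.154), and *Ddit4*, an inhibitor of mTORC1, had 0.45 (limma adjusted p = 0.176). *Ppm1d*, a phosphatase that turns off p53, had -0.47, and *Steap3*, a metalloreductase of iron uptake in red cell precursors, -2.05. *Trp53* measured 66.3, 73.9 and 78.1 FPKM in Norad+/+ and 67.6, 78.8 and 75.8 FPKM in Norad-/-, and the groups overlapped. Of 16 genes of p53 and its regulators 0 were higher and 1 lower, the checkpoint kinase gene *Chek1* (-1.03).

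Among 12 spleen relatives of the 10 genes, 2 were higher and 1 lower at an unadjusted p under 0.05 (7.42% and 13.6% of all genes). *Sesn3* measured 18.3, 15.3 and 11.6 FPKM in Norad+/+ and 20.8, 21.1 and 25.8 FPKM in Norad-/- (log2 fold change 0.60, limma adjusted p = 0.187), whereas *Sesn2* had -0.43. The cyclin G2 gene *Ccng2* had 0.28 and the CDK inhibitor gene *Cdkn2c* -0.96. Of 14 senescence genes 3 were higher and 4 lower (7.42% and 13.6% of all genes, list median 0.03), among them the growth factor binding protein gene *Igfbp3* (0.44), the chemokine gene *Ccl5* (0.33), the lamin gene *Lmnb1* (-0.81) and the cytokine gene *Il1b* (-1.20).

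Of 15 cell division genes in spleen 0 were higher and 13 lower at an unadjusted p under 0.05 (7.42% and 13.6% of all genes), with a median log2 fold change of -1.42, and 0 passed after adjustment. *Mcm5*, a helicase subunit, had -1.29 (limma adjusted p = 0.152) and *Top2a*, the topoisomerase of dividing cells, -1.33. The groups did not overlap, with Norad-/- lower, for 3 of 15 (14.9% of all genes). The summed level of the 15 genes was 284, 577 and 763 FPKM in Norad+/+ and 118, 117 and 352 FPKM in Norad-/-. Over all spleen libraries of both genotypes this sum had the same order as the red cell precursor sum. The part of red cell precursors in this difference was not tested.

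**Figure D5:**
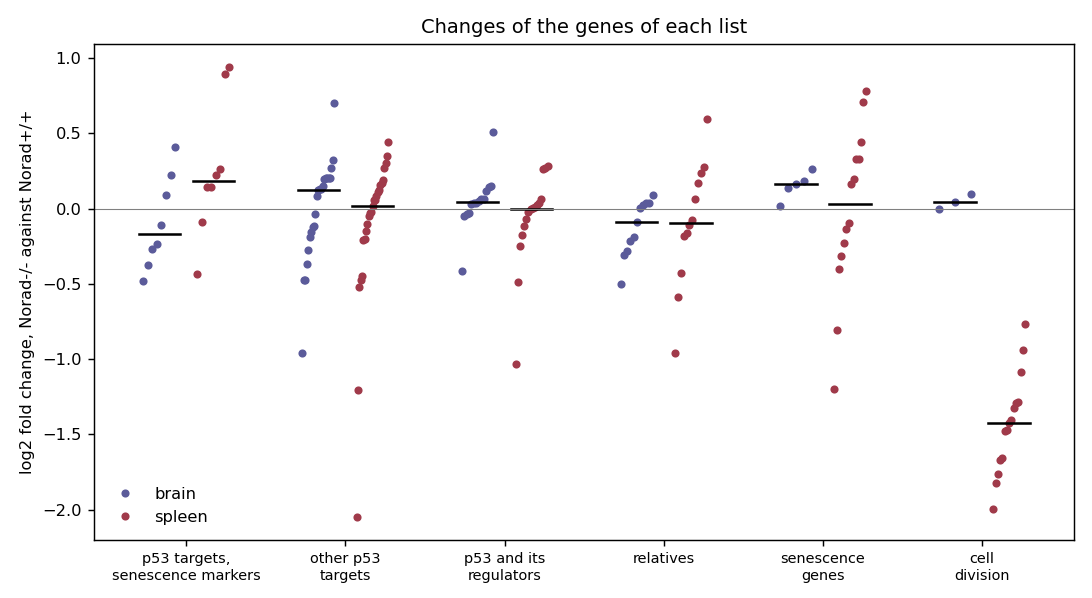
Log2 fold changes of Norad-/- against Norad+/+ for the tested genes of the 10 and of 5 pathway lists in brain and spleen, 1 point per gene with the list's median as a bar. The medians lie between -0.17 and 0.18 except that of the cell division genes in spleen (-1.42), where all 15 points are below 0.

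The genes whose pattern was most like that of *Cdkn1a* and of *Sesn1* were found by Pearson correlation of log2(FPKM + 0.1) over the 12 libraries after removal of the tissue means, among the 10481 genes whose mean reached 1 FPKM in both tissues. The points share libraries, and the values are descriptions. For *Cdkn1a* they were the microRNA gene model *Mir6942* (r = 0.84), *Eif4e3* (r = 0.84), which encodes a cap-binding protein, and *Ddx58* (r = 0.81), the gene of the RNA sensor RIG-I. For *Sesn1* they were *Parp8* (r = 0.81), *Cyr61* (r = 0.79), which encodes a matricellular protein, and *4933427D14Rik* (r = 0.79). Between *Cdkn1a* and the other 7 tested genes r over the 12 libraries ran from -0.21 for *Bax* to 0.29 for *Sesn1*. Within brain alone r ran from -0.34 for *Mdm2* to 0.18 for *Sesn1*, and within spleen alone from -0.81 for *Bax* to 0.60 for *Trp53inp1*.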

How the data were processed

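RNA-seq of 12 mouse brain and spleen libraries (stranded poly(A) selection, 75-base single reads) was analysed from the deposited FPKM values, which per the labels were made with StringTie 1.2.2. The authors removed low-quality reads, ran TopHat2 2.0.12 against GRCm38 and kept unique alignments. Their own counts (featureCounts 1.4.6) and tests (edgeR 3.8.6) were not used here. StringTie shares reads among transcripts, so overlapping genes can exchange signal, and the depths given are estimates from the value of 1 read. Of low values, 45.3% to 49.9% were whole reads within 2%, too few to recover counts. The tables hold 24062 genes, and 0 value columns belonged to no sample.

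Genes whose mean reached 1 FPKM in a tissue were tested on log2(FPKM + 0.1) with limma 3.58.1 (R 4.3.3), with a variance trend and Benjamini-Hochberg adjustment over all genes of the tissue, at 0.05. The added 0.1 FPKM shrinks the log2 changes of low genes. The interaction used genes at that mean in either tissue. Members below it were compared by an exact permutation test. A number that groups share was not used as a block. The fit was tested on simulated data with 200 altered genes. It found 59.5% (brain) and 67% (spleen) of them at a log2 change of 1, and 89.5% in each tissue at 2. Noise was drawn independently for each gene, so these shares are not the power in the real data.

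The members and lists were chosen with earlier results of these data known. All 10 members are named, and from each list up to 4 genes with the smallest p per tissue were eligible, as were the 3 genes most alike to *Cdkn1a* and to *Sesn1*. Older symbols were used for some genes, and 1 T cell marker was not matched. A withheld item is not reported here. A wider search around the gene starts needed a genome and was not run, so RefSeq promoter windows were used. As alternatives the pseudocount, the filter, the scaling and the variance model were changed, and a replicate block, a red cell precursor covariate and leaving out each library were tried. A T cell covariate and leaving out both brain libraries numbered 3 were added after seeing the data. Figures and tables were made with Python 3.11.15, pandas 2.3.3, numpy 2.4.6 and matplotlib 3.10.9.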

Additional observations from a re-analysis of the deposited data

Results flagged for a closer look

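*Ccng1*, the cyclin G1 gene, had non-overlapping groups in both tissues and in opposite directions. All 3 Norad-/- brain libraries (25.8 to 28.0 FPKM) lay below all 3 Norad+/+ brain libraries (29.8 to 34.5 FPKM), and all 3 Norad-/- spleen libraries (42.1 to 44.5 FPKM) lay above all 3 Norad+/+ spleen libraries (37.6 to 41.2 FPKM). The difference between the changes was 0.38 on the log2 scale (95% interval 0.12 to 0.64), and it did not pass over all genes (interaction in limma, adjusted p = 0.240). It stayed between 0.32 and 0.42 when any 1 library was left out. The gene was flagged for this pattern, so the interval and the range describe the same values and add no separate support. The interval and the p also treat brain and spleen libraries as independent, although the tissues may share mice. The share of all genes with such opposite groups was not computed.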

How the results depend on the processing

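Under the alternatives, 394 values of single members were computed, of which 1 passed the threshold and 22 changed sign. The number of members that passed was 0 in brain under every setting run, 0 in spleen except without Norad-/- spleen replicate 3 (range 0 to 1 over the libraries left out), and 0 for the interaction. The one member was *Sesn1* in spleen, whose log2 difference ranged from 0.82 to 1.03 over the libraries left out and from 0.41 to 1.02 over the other settings, with adjusted p from 0.0454 to 0.852 (limma). With 1 brain library left out, signs turned for *Sesn1* (-0.46 to 0.096), *Bax* (-0.51 to 0.13) and *Cdkn1a* (-0.067 to 1.06). With both brain libraries numbered 3 left out, *Cdkn1a* was -0.090, *Sesn1* 0.25, *Bax* 0.026 and *Zmat3* -0.0027, and 25 genes passed in brain in place of 2. In spleen *Bax* became 0.034 after rescaling to TPM and ran from -0.16 to 0.021 with 1 library left out. For the change in spleen minus that in brain, leaving out 1 library gave -0.14 to 0.12 for *Trp53inp1*, -0.26 to 0.22 for *Phlda3*, -0.21 to 0.43 for *Bax* and -0.11 to 1.19 for *Cdkn1a*. The cause of these turns was not tested.

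Samples with the same number were compared as possible pairs. Their deviations from the group means correlated at 0.061, 0.068 and 0.110 in brain and at 0.338, -0.147 and 0.290 in spleen. Each brain library correlated best with its own number. In spleen Norad+/+ replicate 1 correlated best with Norad-/- replicate 2 (0.360). Whether a number marks a pair was not tested. With a replicate block 0 members passed in brain, 0 in spleen and 0 for the interaction, and the genes passing went from 2 to 1 in brain and from 4 to 1 in spleen. Over all genes, leaving out 1 library moved the number that passed from 1 to 15 in brain and from 1 to 93 in spleen. Values of *Cdkn2a* and *Eda2r* rest on few reads. With 3 mice per group, 59.5% of simulated log2 changes of 1 were found in brain and 67% in spleen, so changes of the members can be missed. The simulation altered 200 genes at once and drew noise independently for each gene, so these shares do not give the power in the real data. *Sesn1* in spleen, with a log2 fold change of 0.90, did not pass.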
